A study of Oryctolagus cuniculus with 12 samples.

Results

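CXCL8, CXCL10, CXCL11 and CX3CL1, 4 genes that encode chemokines, were followed in the uterine body of rabbits given lipopolysaccharide (LPS), cyclosporine A (CsA), both or neither. They were found by symbol in the gene name column of the authors' deposited comparison tables and read by their Ensembl identifiers in all 12 libraries. They are 4 of 17301 genes with a value, and all 4 are among the 12794 genes that reached 1 FPKM (fragments per kilobase of transcript, scaled to the mapped fragments of the library) in at least 3 of the 12 libraries. The identifiers are ENSOCUG00000011835 for CXCL8, ENSOCUG00000016280 for CXCL10, ENSOCUG00000026515 for CXCL11 and ENSOCUG00000007482 for CX3CL1. Those tables name genes that the authors selected for a difference, so a chemokine without a difference had no symbol by which to be found. The authors listed all 4 as raised in LPS+CsA over LPS animals, and CXCL10 also as reduced in LPS against Control animals. The values of these comparisons therefore describe how the genes were found and are not independent evidence.

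Chemokines are small secreted proteins that bind receptors on leukocytes and guide their migration along a concentration gradient. CXCL8 (interleukin 8) acts on CXCR1 and CXCR2 and attracts mainly neutrophils, which enter the uterus in response to bacteria and semen. CXCL10 and CXCL11 are induced by interferon and bind CXCR3, a receptor of activated T cells and natural killer cells. CX3CL1 (fractalkine) is made as a membrane-bound protein on endothelial and epithelial cells, where it holds leukocytes that carry CX3CR1, and it attracts them once it is shed. LPS is a component of the outer membrane of Gram-negative bacteria that activates Toll-like receptor 4, and NF-kB and interferon regulatory factors downstream of it drive transcription of many chemokine genes. CsA is an immunosuppressant that inhibits calcineurin and, with it, activation of T cells through NFAT.

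Total RNA of the uterine body was sequenced from New Zealand White rabbits, with 3 animals in each of 4 groups, and all of them had received eCG and hCG to synchronise estrus and ovulation. LPS+CsA animals were infused with LPS (serotype 055:B5) at 4 mg/kg and injected intramuscularly with CsA at 20 mg/kg. LPS animals received the infusion and saline in place of CsA, CsA animals received saline in place of LPS and the CsA injection, and Control animals received saline for both. The uterine body was collected 3 h after treatment. Labels conflict over an intravaginal or intrauterine infusion and over the timing and vehicle of the injection, and no age is stated. Each sample is a piece of whole tissue, so fewer cells of a type and less RNA per cell cannot be told apart. The summed FPKM per library lay between 579986 and 747163, and 11945 to 12398 genes reached 1 FPKM. How many reads each library had is not known here. Of 23 markers of uterine epithelium, stroma and muscle, FOXJ1, a gene of ciliated cells, was the sole one with a symbol, at 0 to 11.5 FPKM, so the tissue label could not be checked in full.

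Averaged over the 12 libraries, CXCL10 stood at 16.5 FPKM and CX3CL1 at 13.5 FPKM, higher than 61.3% and 55.2% of the tested genes. CXCL11 averaged 1.83 FPKM and CXCL8 1.65 FPKM, higher than 11.5% and 10.2% of the tested genes. CXCL10 exceeded CX3CL1 in 7 of 12 libraries, with a ratio of the levels between 0.188 and 3.32, so their order was not stable from animal to animal. The level of each gene varied widely between animals. The highest library was 74.3 times the lowest for CXCL8, 44.3 times for CXCL10, 16.3 times for CX3CL1 and 10.8 times for CXCL11. CXCL10 and CX3CL1 reached 1 FPKM in all 12 libraries, CXCL11 in 7 and CXCL8 in 5.

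**Figure D1:**
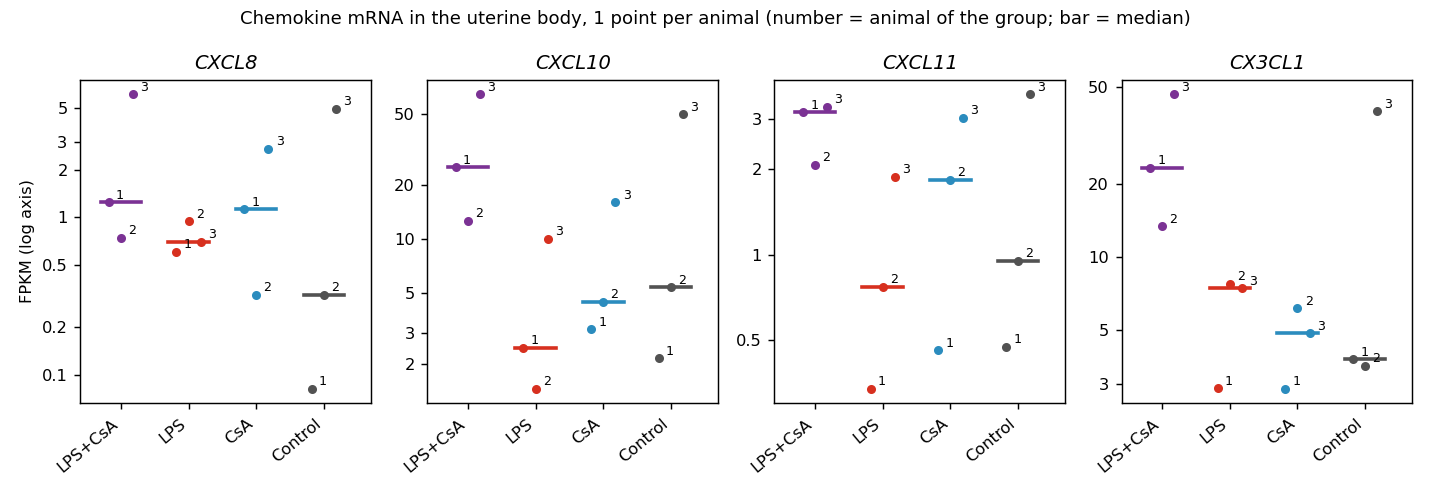
FPKM of each chemokine on a log axis, by group from LPS+CsA to Control, with 1 numbered point per animal and a bar at the group median. The 3 LPS+CsA animals lie above all LPS animals for CXCL10, CXCL11 and CX3CL1, and Control animal 3 stands far above the other Control animals for all 4 genes.

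CXCL10 had the highest mean of the 4 in LPS+CsA animals, although CX3CL1 was above it in animal 2. Its level was 25.3, 12.6 and 64.6 FPKM in LPS+CsA animals 1, 2 and 3, against 2.46, 1.46 and 10.1 FPKM in LPS animals. The lowest LPS+CsA animal was above the highest LPS animal. CXCL10 stood at 3.13, 4.45 and 16.1 FPKM in CsA animals and at 2.15, 5.39 and 50.01 FPKM in Control animals. Control animal 3 was the second highest of the 12, and the other Control animals were in the range of the LPS and CsA animals. Its group means were 34.2 ± 27.1 FPKM in LPS+CsA, 4.67 ± 4.72 in LPS, 7.89 ± 7.14 in CsA and 19.2 ± 26.7 in Control animals (SD, n = 3 each). The SD was close to or above the mean in the LPS, CsA and Control groups.

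CXCL11, the second CXCR3 ligand, was about an order of magnitude less abundant. Its level was 3.17, 2.07 and 3.31 FPKM in LPS+CsA animals, against 0.338, 0.770 and 1.88 FPKM in LPS animals. Those groups did not overlap, although LPS+CsA animal 2 and LPS animal 3 lay close together. CXCL11 stood at 0.461, 1.84 and 3.02 FPKM in CsA animals and at 0.475, 0.950 and 3.66 FPKM in Control animals. The highest level of CXCL11 was thus in a Control animal. Group means were 2.85 ± 0.680 FPKM in LPS+CsA, 0.996 ± 0.796 in LPS, 1.77 ± 1.28 in CsA and 1.69 ± 1.72 in Control animals (SD, n = 3 each).

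CX3CL1, the membrane-bound chemokine, separated LPS+CsA animals from both single-agent groups. Its level was 23.3, 13.4 and 46.8 FPKM in LPS+CsA animals, against 2.88, 7.74 and 7.42 FPKM in LPS animals and 2.86, 6.14 and 4.85 FPKM in CsA animals. All 3 LPS+CsA animals were above all 6 animals that had received a single agent. Of the tested genes, 8.81% separated upwards from LPS animals and 6.51% from CsA animals, and the share with both was not computed. The comparison with LPS animals is also the one through which CX3CL1 was found. Control animals stood at 3.78, 3.56 and 39.8 FPKM, so that 1 Control animal was in the LPS+CsA range and the other Control animals were in the range of the single agents. Group means were 27.8 ± 17.2 FPKM in LPS+CsA, 6.01 ± 2.72 in LPS, 4.62 ± 1.65 in CsA and 15.7 ± 20.9 in Control animals (SD, n = 3 each).

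CXCL8, the neutrophil chemokine, was low in most animals. Its level was 1.25, 0.741 and 6.06 FPKM in LPS+CsA animals, against 0.607, 0.948 and 0.702 FPKM in LPS animals. These groups overlapped, and a single LPS+CsA animal carried most of the mean. CXCL8 stood at 1.12, 0.323 and 2.73 FPKM in CsA animals and at 0.0816, 0.323 and 4.90 FPKM in Control animals. Group means were 2.68 ± 2.94 FPKM in LPS+CsA, 0.752 ± 0.176 in LPS, 1.39 ± 1.23 in CsA and 1.77 ± 2.72 in Control animals (SD, n = 3 each). LPS animals were the most alike, within a range of 1.56 times.

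The authors' deposited tables give counts for part of these libraries, and they show how few reads lie behind the low values. CXCL8 had 26, 14 and 115 counts in LPS+CsA animals, against 13, 19 and 14 in LPS animals. CXCL11 had 51, 30 and 49 counts in LPS+CsA animals, against 5, 12 and 30 in LPS animals. The 5 counts of LPS animal 1 have a 95% Poisson interval of 1.62 to 11.7, which covers counting error only. CXCL10 had 164, 75 and 404 counts in LPS+CsA animals, against 17, 9 and 70 in LPS animals. CX3CL1 rested on far more, with 1588, 988 and 3467 counts in LPS+CsA animals and 199, 550 and 515 in LPS animals. At the same FPKM per count, the CXCL8 value of Control animal 1 corresponds to an estimated 1.63 reads. Over the 6 LPS+CsA and LPS libraries the FPKM per count varied 1.17-fold for CXCL10 and 1.09-fold to 1.13-fold for the other members, and it varied 1.58-fold for CXCL10 once the 3 Control libraries were counted.

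CsA given with LPS was set against LPS alone, the question that the title of the series names. All 4 chemokines had higher group means in LPS+CsA than in LPS animals, and for CXCL10, CXCL11 and CX3CL1 the groups did not overlap. Such separation upwards was found for 8.81% of the 12794 tested genes. The log2 difference of FPKM + 1 was 2.65 ± 1.00 for CXCL10 (SE, 95% interval 0.44 to 4.87), with unadjusted p = 0.0231 and adjusted p = 0.607 in limma. For CX3CL1 it was 1.96 ± 0.76 (interval 0.28 to 3.64), with unadjusted p = 0.0264 and adjusted p = 0.616. CXCL11 differed by 1.01 ± 0.47 (interval -0.04 to 2.05, adjusted p = 0.619) and CXCL8 by 0.79 ± 0.67 (interval -0.69 to 2.28, adjusted p = 0.804). None of the 4 passed the threshold of 0.05 on the adjusted p, nor did any of the tested genes (0%), while 1031 genes had an unadjusted p under 0.05. CXCL10 and CX3CL1 were among the 0.469% of genes with an unadjusted p under 0.05 and a rise of at least 2-fold on that scale. The median difference was 1.48 over the 4 chemokines and 0.01 over all tested genes, in a comparison through which the chemokines had been found. In the authors' deposited table of this comparison, which tested counts, the log2 fold changes were 1.76 for CXCL8 (p = 0.0190), 2.75 for CXCL10 (p = 0.000244), 1.47 for CXCL11 (p = 0.0265) and 2.27 for CX3CL1 (p = 1.81e-07).

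LPS in CsA-treated animals was read from LPS+CsA against CsA animals, with the spread estimated over all 12 libraries. Of the 4 chemokines, CX3CL1 separated LPS+CsA from CsA animals, a separation upwards that 6.51% of tested genes showed. Its log2 difference was 2.23 ± 0.76 (interval 0.55 to 3.91), with unadjusted p = 0.0139 and adjusted p = 0.701. It was among the 0.531% of genes with an unadjusted p under 0.05 and a rise of at least 2-fold. CXCL10 differed by 1.98 ± 1.00 (unadjusted p = 0.0750, adjusted p = 0.714). CXCL11 and CXCL8 differed by 0.58 and 0.47, with adjusted p = 0.786 and 0.875. No gene (0%) passed the adjusted threshold in limma, and 892 had an unadjusted p under 0.05. The median was 1.28 over the 4 chemokines and 0.01 over all tested genes. The LPS+CsA libraries are shared with the comparison against LPS alone, through which the genes were found. The differences from CsA animals are therefore not independent of that selection.

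Against Control animals, LPS+CsA animals overlapped for all 4 chemokines, while 6.88% of tested genes separated upwards. The log2 differences were 1.51 for CXCL10, 1.41 for CX3CL1, 0.68 for CXCL11 and 0.57 for CXCL8, with adjusted p between 0.941 and 0.963. The overlap came from Control animal 3 for all 4 genes, since the other Control animals were below every LPS+CsA animal. Without Control animal 3 the differences were 2.67 for CXCL10, 2.45 for CX3CL1, 1.17 for CXCL11 and 1.34 for CXCL8. These were the highest values on leaving out 1 library. The lowest were 0.67 for CXCL10 and 0.34 for CXCL11 without Control animal 1, and 0.87 for CX3CL1 without Control animal 2. For CXCL8 the lowest was -0.04, without LPS+CsA animal 3. The LPS+CsA libraries are shared with the comparison through which the genes were found, so these differences are not independent of that selection. No gene (0%) passed the adjusted threshold in limma, and 617 had an unadjusted p under 0.05.

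In LPS alone against Control, all 4 chemokines had lower group means in LPS animals, within overlapping ranges. CXCL10 differed by -1.15 ± 1.00 in LPS minus Control animals on the log2 scale (interval -3.36 to 1.06), with adjusted p = 0.877. The authors' deposited table of this comparison gives a log2 fold change of -1.98 for CXCL10 (p = 0.0410). They had listed CXCL10 for a fall in this comparison, so its values here are not independent of that selection. CX3CL1, CXCL11 and CXCL8 differed by -0.55, -0.32 and -0.22, with adjusted p = 0.926, 0.932 and 0.966. All 4 groups of values overlapped, and 5.24% of tested genes separated downwards. Leaving out Control animal 3 alone changed the sign of all 4 differences, to 0.02 for CXCL10, 0.50 for CX3CL1, 0.16 for CXCL11 and 0.55 for CXCL8. With the libraries numbered 1 and 2 alone, a choice made after seeing the data, CXCL8 and CX3CL1 changed sign. CXCL10 and CXCL11 then stayed lower in LPS animals. No gene (0%) passed the adjusted threshold in limma, and 839 had an unadjusted p under 0.05.

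CsA alone against Control gave differences within the spread between animals. CX3CL1 differed by -0.82 in CsA minus Control animals (interval -2.50 to 0.86, adjusted p = 0.953) and CXCL10 by -0.47 (interval -2.69 to 1.74, adjusted p = 0.976). CXCL11 and CXCL8 differed by 0.11 and 0.10, with adjusted p = 0.988 and 0.992. The groups overlapped for all 4, and 3.68% of tested genes separated downwards. Without Control animal 3 the difference of CX3CL1 was 0.22 and that of CXCL10 0.70. No gene (0%) passed the adjusted threshold in limma, and 594 had an unadjusted p under 0.05.

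Whether the effect of CsA differed with and without LPS was tested as an interaction. It was 3.13 ± 1.42 for CXCL10 (interval -0.00 to 6.26, unadjusted p = 0.0503) and 2.78 ± 1.08 for CX3CL1 (interval 0.40 to 5.16, unadjusted p = 0.0260), on the log2 scale. For CXCL11 it was 0.90 and for CXCL8 0.69. The adjusted p was 1.00 for all 4 chemokines. No gene (0%) passed that threshold, 392 had an unadjusted p under 0.05, and CX3CL1 was among the 0.805% that had one with a positive interaction of at least 2-fold. Averaged over the second agent, with 6 animals against 6, LPS gave 0.84 for CX3CL1, 0.41 for CXCL10, 0.13 for CXCL11 and 0.12 for CXCL8, with adjusted p between 0.562 and 0.934. CsA averaged in the same way gave 1.09 for CXCL10, 0.57 for CX3CL1, 0.56 for CXCL11 and 0.45 for CXCL8, with adjusted p between 0.566 and 0.759. No gene (0%) passed the adjusted threshold for either average, and 1443 genes for LPS and 1344 genes for CsA had an unadjusted p under 0.05. The interaction and the CsA average contain the difference of LPS+CsA from LPS animals, through which the genes were found. The LPS average shares those libraries, so none of these results is independent of that selection.

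**Figure D2:**
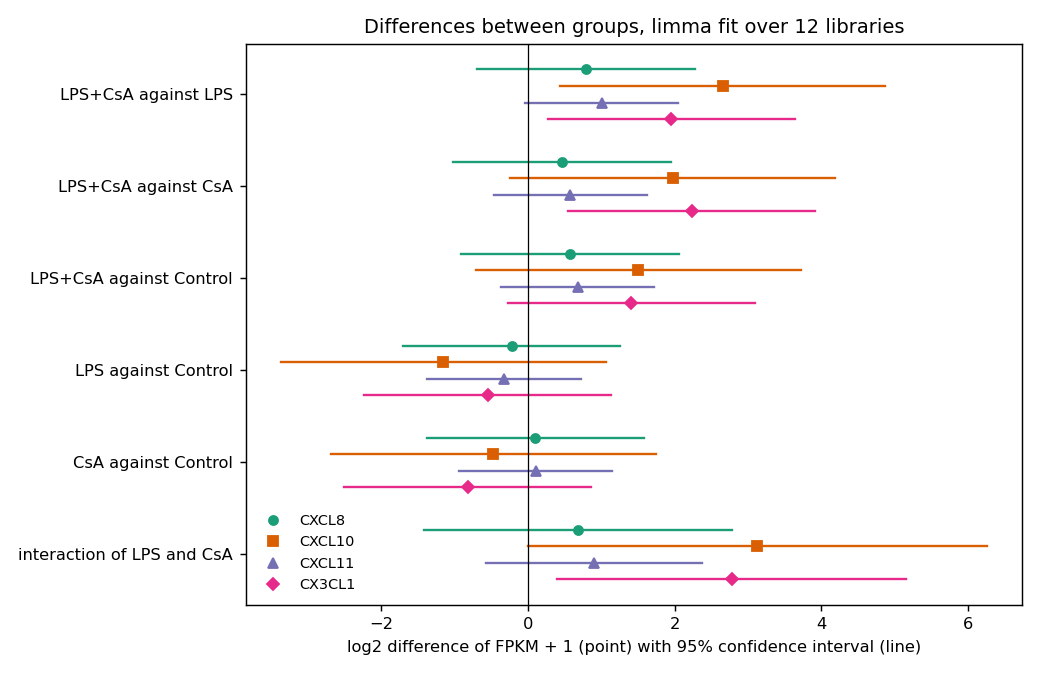
Log2 difference of FPKM + 1 for each chemokine in 5 comparisons between groups and the interaction, with 95% confidence intervals from limma over 12 libraries. The intervals of CXCL10 and CX3CL1 for LPS+CsA against LPS, and of CX3CL1 for LPS+CsA against CsA and the interaction, do not include 0, and every other interval does.

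Animal 3 of a group was often the highest. CXCL10 and CXCL11 had their highest level in animal 3 of all 4 groups, a pattern that 384 of the 12794 tested genes (3.0%) showed. The same pattern was found with animal 1 for 1.02% and with animal 2 for 3.83% of genes. CXCL8 was highest in animal 3 of the LPS+CsA, CsA and Control groups, and CX3CL1 in animal 3 of the LPS+CsA and Control groups. The labels do not say that a number marks a shared batch or day. Leaving out each library in turn kept all 4 chemokines higher in LPS+CsA than in LPS animals, with log2 differences of 2.06 to 3.30 for CXCL10, 1.51 to 2.37 for CX3CL1, 0.75 to 1.31 for CXCL11 and 0.18 to 1.19 for CXCL8. The lowest of these values for CXCL8 came without LPS+CsA animal 3. With the libraries numbered 1 and 2 alone, a choice made after seeing the data, that comparison did not change sign for any of the 4. The genes had been found through that comparison, so a stable sign in it is not independent evidence.

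**Figure D3:**
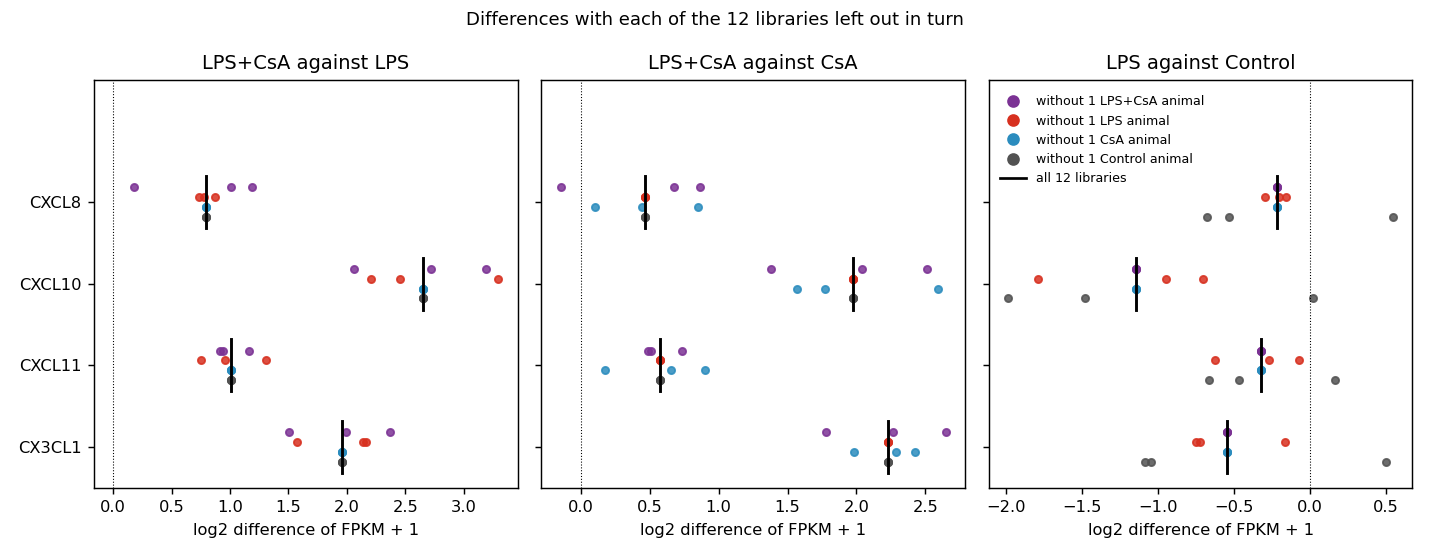
Log2 difference of FPKM + 1 of each chemokine with all 12 libraries (black bar) and with each library left out (points, coloured by the group that lost an animal), for 3 comparisons. All points lie above 0 for LPS+CsA against LPS, and the point without Control animal 3 lies on the other side of 0 for LPS against Control.

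The 4 chemokines varied together over the 12 libraries. All 4 had been found through a difference between the same groups, which can raise r, and the permutations ignored the groups. The permutation p-values therefore do not separate covariation within groups from differences between groups. Over the 6 pairs, r of the deviations from the group means, given without a test, was between 0.648 and 0.893. Over the 12 libraries the log2 levels of CXCL10 and CXCL11 had a Pearson r of 0.914 (permutation p adjusted over 6 pairs = 0.00024) and a Spearman rho of 0.923 (adjusted permutation p = 0.00036). Without the 2 libraries farthest from the median, Control 3 and LPS+CsA 3, r was 0.909, and r of the deviations from the group means was 0.893. CXCL10 and CX3CL1 had r = 0.866 (adjusted permutation p = 0.00147) and rho = 0.685 (adjusted permutation p = 0.0206), with r = 0.671 without the same libraries. CXCL11 and CX3CL1 had r = 0.807 and rho = 0.853 (adjusted permutation p = 0.00288), with r = 0.740 without CsA 1 and LPS 1. CXCL8 had r of 0.822 with CXCL10, 0.748 with CX3CL1 and 0.699 with CXCL11, and rho of 0.713, 0.587 and 0.685 with the same genes, with adjusted permutation p of rho between 0.0206 and 0.04998. Without Control 3 and LPS+CsA 3 its r was 0.528 with CXCL10, 0.227 with CX3CL1 and 0.524 with CXCL11, so these relations rested largely on those animals. In the order of genes on the RefSeq assembly mOryCun1.1, CXCL10 lies next to CXCL11 on chromosome 8, CXCL8 is on the same chromosome beside RASSF6, and CX3CL1 lies between CCL22 and CCL17 on chromosome 18.

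**Figure D4:**
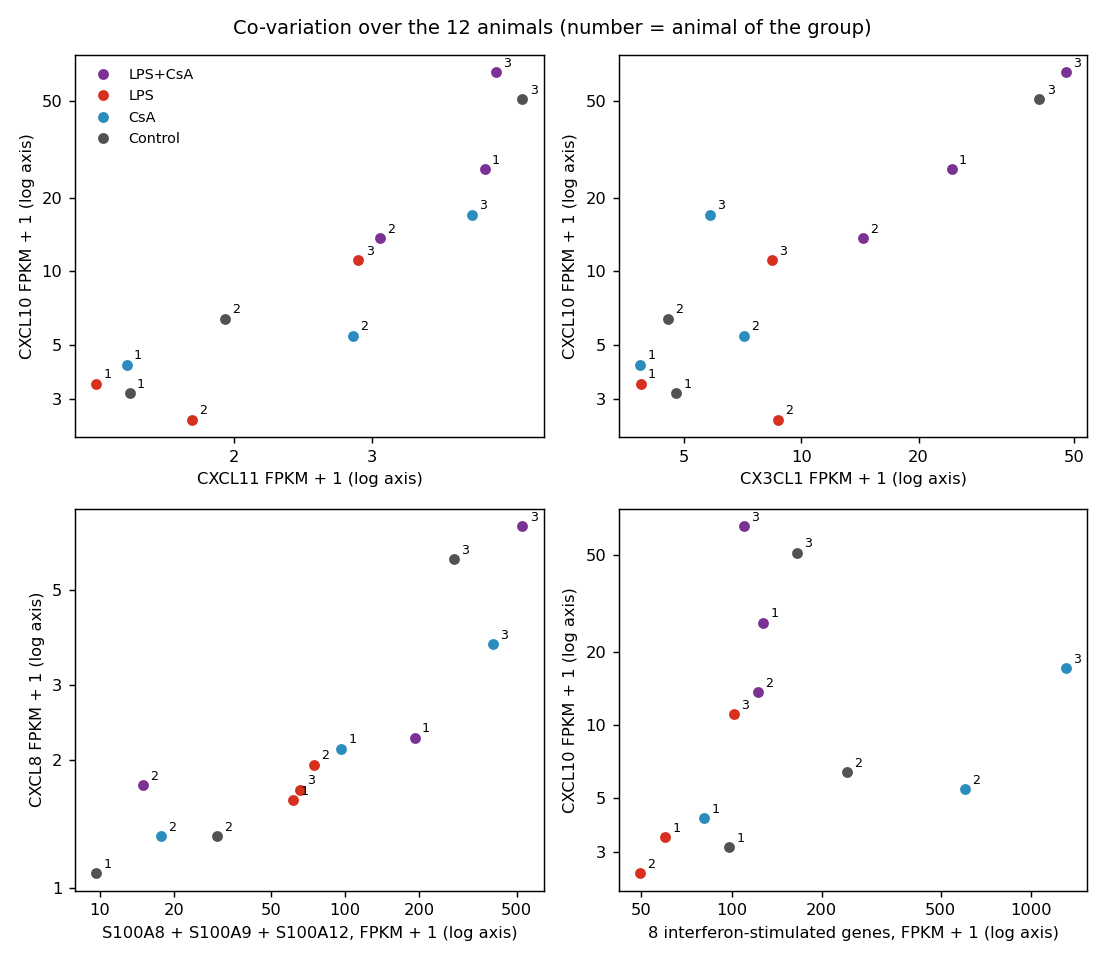
FPKM + 1 on log axes in 12 animals, coloured by group and numbered, for CXCL10 against CXCL11, CXCL10 against CX3CL1, CXCL8 against the sum of S100A8, S100A9 and S100A12, and CXCL10 against the sum of 8 interferon-stimulated genes. The first 3 panels rise together, with r of 0.914, 0.866 and 0.885, while in the last the CsA animals 2 and 3 stand alone at the right (r = 0.261).

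Other chemokine loci carry no symbol in the deposited tables. The pathway names that the authors attached describe ENSOCUG00000024425 as GRO beta, a neutrophil chemokine of the CXCL family, and the new locus Rabbit_newGene_2547 as CCL7, a monocyte chemokine. RefSeq gives the gene linked to the GRO beta locus the symbol CXCL1, and because GRO genes are close copies of each other its reads may be shared with relatives. The GRO beta locus stood at 45.3, 14.6 and 80.6 FPKM in LPS+CsA animals, against 20.7, 16.5 and 13.9 FPKM in LPS animals, 15.9, 9.93 and 37.8 FPKM in CsA animals and 7.93, 14.6 and 94.5 FPKM in Control animals. It differed by 1.13 on the log2 scale between LPS+CsA and LPS animals (adjusted p = 0.756). The CCL7 locus stood at 4.12, 3.23 and 17.2 FPKM in LPS+CsA animals, against 2.16, 1.90 and 3.24 FPKM in LPS animals, 2.79, 1.04 and 4.46 FPKM in CsA animals and 1.37, 1.87 and 18.2 FPKM in Control animals. It differed by 1.11 between LPS+CsA and LPS animals (adjusted p = 0.735), and its highest library was Control 3. In both loci the LPS+CsA and LPS groups overlapped. The authors had listed both loci, like CXCL8, for a difference between these groups. Their differences and their nearness to CXCL8 are therefore not independent of that selection. The CCL7 locus was the second nearest of 12793 genes to CXCL8 (r = 0.948) and the GRO beta locus the fourth (r = 0.935), over the 12 libraries.

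Among 259 tested genes with a symbol, the genes with the pattern most like each chemokine over the 12 libraries were ranked by Pearson r as a description, in libraries that share these animals. Nearest to CXCL8 were S100A9 (r = 0.915) and S100A12 (r = 0.9002), calcium-binding proteins abundant in neutrophils, IRG1 (r = 0.907), which makes itaconate in activated macrophages, TNFAIP2 (r = 0.883), a gene induced by tumour necrosis factor, and DCT (r = 0.883), an enzyme of melanin synthesis. CXCL10 had as its nearest genes CXCL11, TNFAIP2 (r = 0.871), CX3CL1, RND1 (r = 0.865) and BIRC3 (r = 0.857), an inhibitor of apoptosis that NF-kB induces. CXCL11 was nearest to CXCL10, CX3CL1, RND1 (r = 0.768), IRG1 (r = 0.744) and TNFAIP3 (r = 0.736), which encodes A20, a feedback inhibitor of NF-kB. CX3CL1 was nearest to RND1 (r = 0.958), BIRC3 (r = 0.934), TNFAIP3 (r = 0.925), CXCL10 and FRMPD3 (r = 0.858). RND1 stood at 2.34, 1.95 and 4.63 FPKM in LPS+CsA animals, against 0.617, 1.39 and 1.92 FPKM in LPS animals. These groups did not overlap either, as for 8.81% of tested genes, and the adjusted p in limma was 0.647. All genes with a symbol had been selected by the authors for a difference.

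NF-kB targets and regulators were read as a group through their summed level. Of 21 such genes in the list, TNFAIP2, TNFAIP3, TNFAIP8, BIRC3, BCL3 and SELE (E-selectin, an adhesion molecule of endothelium) had a symbol. All 6 had higher means in LPS+CsA than in LPS animals, with a median difference of 1.06 against 0.01 over all genes, and none passed the adjusted threshold (smallest adjusted p = 0.596). Symbols exist for genes that the authors selected for a difference, so this shared direction is not independent of that selection. Their summed level was 74.8, 56.8 and 199 FPKM in LPS+CsA animals, against 45.6, 47.1 and 43.5 FPKM in LPS animals, 43.6, 41.6 and 54.9 FPKM in CsA animals and 31.6, 39.9 and 91.1 FPKM in Control animals. The sum, which is mostly BIRC3 and BCL3, was highest in LPS+CsA animal 3 and Control animal 3. SELE and TNFAIP8 were not high in Control animal 3, where SELE stood at 1.42 FPKM, below 8 other libraries, and TNFAIP8 at 5.1e-05 FPKM. The log2 sum correlated with CX3CL1 at r = 0.876 and rho = 0.755, with CXCL8 at r = 0.885 and rho = 0.895, and with CXCL10 at r = 0.857 and rho = 0.727 (permutation p of r adjusted over 12 relations between 0.00028 and 0.00054, and of rho between 0.00138 and 0.0239). With CXCL11 r was 0.704 and rho 0.727 (adjusted permutation p = 0.00737 and 0.0239). Without Control 3 and LPS+CsA 3, r of the 4 relations was between 0.682 and 0.764. The summed genes and the chemokines were both selected for a difference, and the permutations ignored the groups. These correlations and their p-values are therefore not independent of that selection.

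Neutrophil genes were set beside CXCL8, the neutrophil chemokine. Of 13 neutrophil markers, S100A8, S100A9 and S100A12 had a symbol, and none of the defining granule and receptor genes did. Their summed level was 191, 14.0 and 527 FPKM in LPS+CsA animals, against 60.2, 73.3 and 64.2 FPKM in LPS animals, 95.4, 16.7 and 399 FPKM in CsA animals and 8.68, 29.0 and 276 FPKM in Control animals. The lowest and the highest sums were both outside the LPS group. With CXCL8 the log2 sum had r = 0.885 and rho = 0.923 (adjusted permutation p = 0.00028 and 0.00084), and r = 0.825 without Control 1 and LPS+CsA 3. With CXCL10, CXCL11 and CX3CL1 r was 0.676, 0.584 and 0.537 (adjusted permutation p = 0.0352, 0.0836 and 0.111), and rho was 0.622, 0.573 and 0.420 (adjusted permutation p = 0.0667, 0.0732 and 0.211). LPS+CsA animal 2 had the second lowest sum of S100 genes and CX3CL1 at 13.4 FPKM, above every LPS and CsA animal. The S100 genes too have a symbol because the authors selected them for a difference, and the permutations again ignored the groups. The part of a different number of neutrophils in the chemokine values was not tested.

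Interferon-stimulated genes were highest in other animals than CXCL10 and CXCL11, which are themselves interferon targets. Of 34 genes in the list, ISG15, IFIT3, IFI44L, OAS2, OASL, USP18, IRF7 and DDX60 had a symbol. Their summed level was 602 FPKM in CsA animal 2 and 1315 FPKM in CsA animal 3, against 48.5 to 242 FPKM in the other 10 libraries. CXCL10 was 4.45 and 16.1 FPKM in these CsA animals. In LPS+CsA animal 3, where CXCL10 was 64.6 FPKM, the sum was 109 FPKM. With CXCL10 the log2 sum had r = 0.261 (adjusted permutation p = 0.501) and rho = 0.594 (adjusted permutation p = 0.0667), and r = 0.536 without CsA 2 and CsA 3. With CXCL11 r was 0.478 and rho 0.601 (adjusted permutation p = 0.155 and 0.0667), with CXCL8 r was 0.133 and rho 0.126 (adjusted permutation p = 0.763 and 0.699), and with CX3CL1 r was -0.06 and rho 0.203 (adjusted permutation p = 0.855 and 0.574). All 8 genes had higher means in LPS+CsA than in LPS animals, with a median of 0.78 against 0.01 over all genes, and lower means in LPS+CsA than in CsA animals, with a median of -1.58. These 8 have a symbol because the authors selected them for a difference, so their shared direction is not independent of that selection. None of the 8 passed the adjusted threshold in limma in either comparison (smallest adjusted p 0.756 and 0.707).

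**Figure D5:**
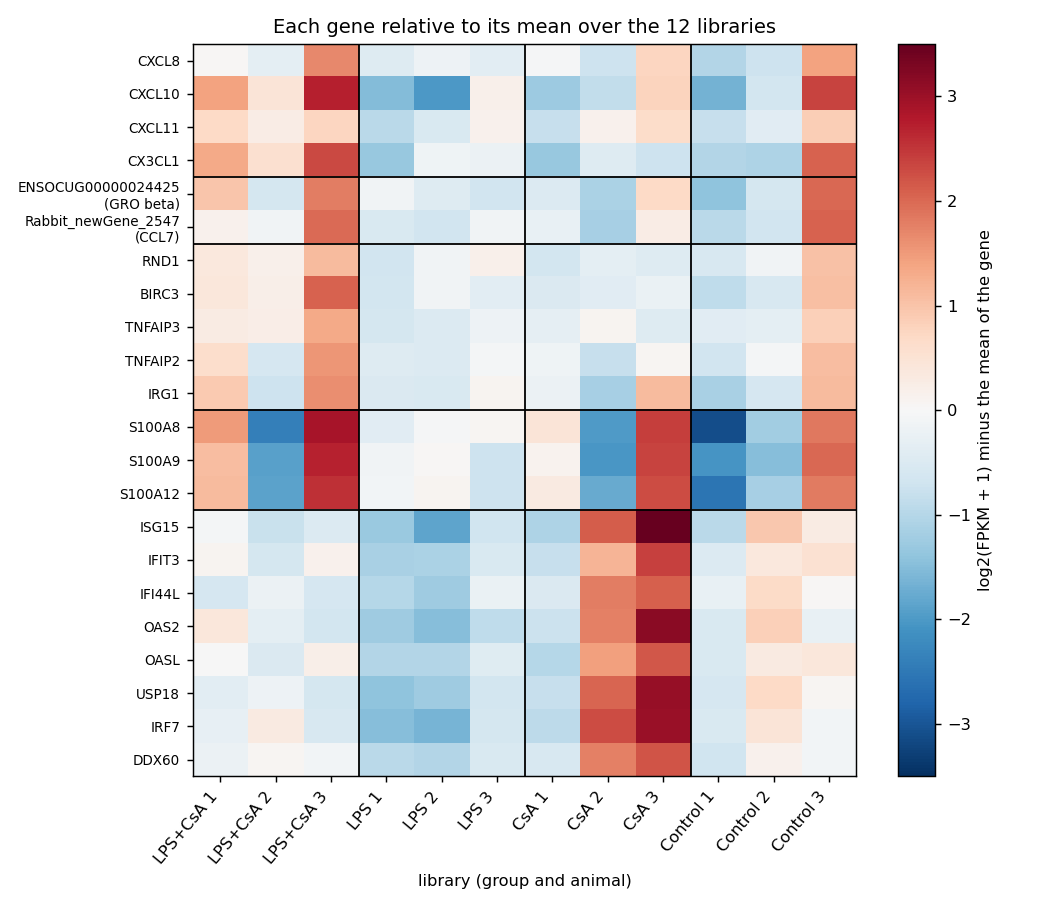
Log2(FPKM + 1) of each gene minus its mean over 12 libraries, with the 4 chemokines at the top, then the unnamed chemokine loci, genes with a like pattern, S100 genes and interferon-stimulated genes. Chemokines are high in LPS+CsA animal 3 and Control animal 3, and interferon-stimulated genes in CsA animals 2 and 3, where their sum was 602 and 1315 FPKM.

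Genes of lymphocytes and blood were read as markers of other cells in the tissue. TRAC, the T cell receptor alpha constant gene, was the sole one of 14 T and natural killer cell markers with a symbol. It stood at 5.36, 5.99 and 2.29 FPKM in LPS+CsA animals, against 0.655, 0.948 and 1.13 FPKM in LPS animals. These groups did not overlap, a separation upwards that 8.81% of tested genes showed, and the adjusted p in limma was 0.585. TRAC has a symbol because the authors selected it for a difference. It stood at 3.18, 3.99 and 1.99 FPKM in CsA animals and at 2.54, 2.59 and 4.06 FPKM in Control animals. The plasma cell genes JCHAIN, MZB1 and DERL3 summed to 74.2, 121 and 69.0 FPKM in LPS+CsA animals, against 16.4, 26.5 and 24.6 FPKM in LPS animals, 15.4, 44.7 and 28.7 FPKM in CsA animals and 41.9, 37.3 and 132 FPKM in Control animals. That sum is mostly JCHAIN. For each of the 3 genes the LPS+CsA and LPS groups did not overlap, as for 8.81% of tested genes. None passed the adjusted threshold in limma in that comparison (smallest adjusted p = 0.587). JCHAIN, MZB1 and DERL3 too have a symbol because the authors selected them for a difference, so their shared direction is not independent of that selection. Among Control animals JCHAIN and MZB1 were highest in animal 3, at 120 and 9.39 FPKM, while DERL3 was highest in animal 1, at 8.29 FPKM. The red blood cell genes HBB2 and ALAS2 summed to 339, 120.3 and 252 FPKM in LPS+CsA animals, against 109.7, 128 and 127 FPKM in LPS animals, 202, 140.1 and 171 FPKM in CsA animals and 380, 217 and 211 FPKM in Control animals. Their part in the chemokine differences was not tested. None of the 18 chemokine receptors, 5 scavenging receptors and 17 acute cytokines in the lists, CXCR2, CXCR3 and CX3CR1 among them, had a symbol in the deposited tables, so ligands could not be set beside their receptors.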

How the data were processed

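The deposited values are FPKM per gene in 12 libraries, made by the authors; per the submitters' processing notes, the tools were TopHat2, Cufflinks and Cuffnorm. For their versions, the genome build and read totals nothing is stated in the sources used. The authors' deposited comparison tables also hold counts, log2 fold changes and p-values, made with edgeR per the file headers; whether the deposited counts were rescaled is not stated, so they served to show depth and not for a test.

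Genes at 1 FPKM or more in at least 3 of 12 libraries were tested on log2(FPKM + 1) with limma 3.58.1 (R 4.3.3), with a mean per group, a variance trend and all 12 libraries, two-sided. P-values were adjusted (Benjamini-Hochberg) over the 12794 genes. The pseudocount of 1 makes differences of low genes smaller than their fold change. Each group has 3 animals per the labels. Correlations used Python 3.11.15 and scipy 1.17.1 with 100000 permutations over all 12 libraries, which did not keep libraries within their groups.

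The members and gene lists were chosen with earlier results of these data known. Genes named beside the 4 chemokines were the 5 genes with a symbol of highest Pearson r, every chemokine gene with a symbol, and up to 4 per other list by mean FPKM; the members of the NF-kB and interferon lists were also named to say what was summed. Symbols come from the deposited tables, where 307 symbols are paired with identifiers. No promoter or protein sequence was used here.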

Additional observations from a re-analysis of the deposited data

How the results depend on the processing

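Across the alternatives, which were a pseudocount of 0.1, no filter on low values, median-of-ratios rescaling, a replicate block, a fit on the compared groups alone, each library left out and, chosen after seeing the data, the libraries numbered 1 and 2 alone, 564 values of the 4 chemokines were recomputed. No chemokine passed the adjusted threshold in any (smallest adjusted p 0.335), 29 values changed sign, 23 of them on leaving out 1 library, and 0 did so for LPS+CsA against LPS. That last comparison is the one through which the 4 had been found. Rescaling moved the median of all genes by at most 0.04 (log2).

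Genes called numbered 2 for LPS against Control and 2 for LPS+CsA against LPS with no filter. With the compared groups alone 1 gene was called for LPS+CsA against LPS, 1 against Control and 1 against CsA. The cause was not tested. Leaving out 1 library gave 0 to 4 called genes for CsA against Control, 0 to 7 for LPS averaged, 0 to 3 for CsA averaged, and 0 to 1 for LPS against Control, for the interaction and for LPS+CsA against LPS, CsA or Control.

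A pseudocount of 0.1 turned CXCL8 in LPS against Control to 0.21. With libraries 1 and 2 alone, CXCL8 and CX3CL1 were at 0.56 and 0.32 in LPS against Control, CXCL10 and CX3CL1 at 0.0801 and 0.17 in CsA against Control, and the interaction of CXCL8 at -0.32. Leaving out 1 library gave, for LPS against Control, -0.68 to 0.55 (CXCL8), -1.99 to 0.0194 (CXCL10), -0.67 to 0.16 (CXCL11) and -1.09 to 0.50 (CX3CL1). For CsA against Control the ranges were -0.35 to 0.87 (CXCL8), -1.31 to 0.70 (CXCL10), -0.24 to 0.59 (CXCL11) and -1.36 to 0.22 (CX3CL1). CXCL8 ranged from -0.14 to 0.87 in LPS+CsA against CsA, -0.0406 to 1.34 against Control, -0.0791 to 1.14 in the interaction and -0.18 to 0.51 for LPS averaged, for which CXCL10 ranged from -0.0054 to 1.00 and CXCL11 from -0.0755 to 0.37.

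Samples share replicate numbers without a stated pairing. Of 18 same-numbered pairs of libraries, 8 had deviations from the group means correlated over 0.1 (range -0.0909 to 0.421), among them all 6 pairs numbered 3 (0.194 to 0.278), and 9 of 12 libraries correlated best with their own number, a hint from the data and not the design. With the replicate block 0 genes were called in every comparison. CXCL10 in LPS+CsA against LPS then had unadjusted p = 0.000221 and adjusted p = 0.377 in limma. Over the alternatives of that comparison its adjusted p lay between 0.377 and 0.917. CXCL10 had been found through that comparison, so these p-values are not independent of that selection, and the block rests on a pairing that is not stated. Few reads lie behind CXCL8 and CXCL11, which limits the precision of their values.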

Other observations

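The ratio of CXCL10 to CXCL11, which share the receptor CXCR3, was 7.98, 6.10 and 19.5 in LPS+CsA animals, against 7.27, 1.89 and 5.36 in LPS animals, 6.79, 2.42 and 5.33 in CsA animals and 4.53, 5.67 and 13.7 in Control animals. The ratio was highest in LPS+CsA 3 and Control 3, the libraries with the highest CXCL10, and groups overlapped.

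Of all 12793 genes compared, the identifier without a symbol nearest to both CXCL10 (r = 0.955) and CXCL11 (r = 0.945) was ENSOCUG00000017251, which the files do not pair with a name. Pearson r over 0.9 across the 12 libraries was reached by 9 genes with CXCL8, 5 with CXCL10, 4 with CXCL11 and 6 with CX3CL1. These values are a description of libraries from the same animals.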
